A study of Canis lupus familiaris with 22 samples.

Results

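The nuclear genes of oxidative phosphorylation encode the subunits of the 5 enzyme complexes of the inner mitochondrial membrane. Members were taken as the genes whose symbol in the array's annotation begins with NDUFA, NDUFB, NDUFC, NDUFS or NDUFV and a number, with UQCR, with COX4 to COX8 and a letter or with ATP5, together with SDHA, SDHB, SDHC and SDHD. A probe set counted only where it carried no other symbol. This gave 61 genes of the 15115 genes measured, from 117 of 42924 probe sets. Complex I held 32 genes, complex II held 4, complex III held 7, complex IV held 8 (NDUFA4, a subunit of that enzyme in spite of its name, included) and complex V held 10. In 23 of the genes the value rested on 1 probe set, and in 38 it was the mean of up to 6.

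Expression was profiled with Affymetrix Canine 2.0 arrays, which carry short DNA probes for dog transcripts, with biotin-labelled RNA made from 5 µg of total RNA. The 18 tumor samples were naturally occurring, high grade invasive urothelial carcinoma (iUC) of pet dogs, taken at cystoscopy before any therapy, and the 4 normal bladder samples came from healthy, age-matched dogs without a tumor. Each sample is a separate biological replicate on 1 array, and the number of arrays limits the precision. The deposited values are on a log2 scale with each probe set centred on its median over the 22 arrays, so that a value tells how one array stands to the others and not how abundant a transcript is.

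In oxidative phosphorylation, complexes I and II take electrons from NADH and succinate, complex III passes them to cytochrome c and complex IV hands them to oxygen, while complexes I, III and IV pump protons that drive complex V, the ATP synthase. Most subunits are encoded in the nucleus and imported, and a few core subunits are made inside the mitochondrion. Smooth muscle of the bladder wall, which contracts for long periods, and the urothelium, the lining from which iUC arises, both respire. Some subunits of complex IV have a second form that is made in muscle.

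Smooth muscle markers stood higher on average in the normal samples than in the tumor samples. The mean of 24 smooth muscle markers was 3.03, 1.98, 3.25 and 3.63 in normal bladder replicates 1 to 4 and ran from -0.43 to 0.91 in iUC, and 19 of the 24 were called lower in iUC. Of 19 markers of urothelium 12 were called higher in iUC and 1 lower. Their mean was -0.45, -0.04, -1.71 and -3.05 in normal bladder replicates 1 to 4 and ran from -1.14 to 0.69 in iUC. The groups thus overlapped, and the normal samples differed widely among themselves. Fibroblast and matrix markers were called lower for 9 of 12 and higher for 1, and endothelial markers lower for 3 of 10. Leukocyte markers were called lower for 2 of 14, with a median difference of -0.09, and markers of dividing cells higher for 7 of 10. All these marker calls are by limma, 2-fold or more at an adjusted p up to 0.05. At that threshold 8.64% of all genes were called lower and 3.68% higher. Centred values have no zero, so no marker can be said to be absent. In bulk tissue fewer cells of a type and less RNA per cell cannot be told apart.

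A technical difference divided the iUC arrays. The 17 Tag control probe sets match artificial sequences and no dog transcript, and 7 of the 18 iUC arrays had a Tag mean of 0.2 or above (0.277 to 0.460), against -0.128 to 0.131 on the other 11 and -0.215 to -0.0768 on the normal arrays. On the same 7 arrays the 6 GAPDH and actin controls averaged -1.13 to -0.582, against -0.0799 to 0.246 on the other iUC arrays and -0.338 to 0.375 on the normal arrays. The counts of members are therefore given over all iUC samples and over the 11 with the lower Tag signal, and single differences are over all iUC samples unless the 11 are named. In addition, the labels of normal bladder replicates 2, 3 and 4 share an ending that no other sample has, and what it marks is not given.

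In iUC the members were shifted downwards as a group. On average over the 61 genes, normal bladder replicates 1 to 4 stood at 0.36, 0.53, 0.45 and 0.63 (centred log2), the 11 iUC samples with the lower Tag signal ran from -0.11 to 0.23 and the 7 with the higher Tag signal from -0.84 to -0.34. No iUC sample reached the lowest normal sample, and the iUC arrays of the 2 Tag ranges did not overlap either. Of the 61 genes, 58 had a lower mean in iUC than in normal bladder, and the median difference was -0.67 (log2) against 0.08 over all genes.

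**Figure D1:**
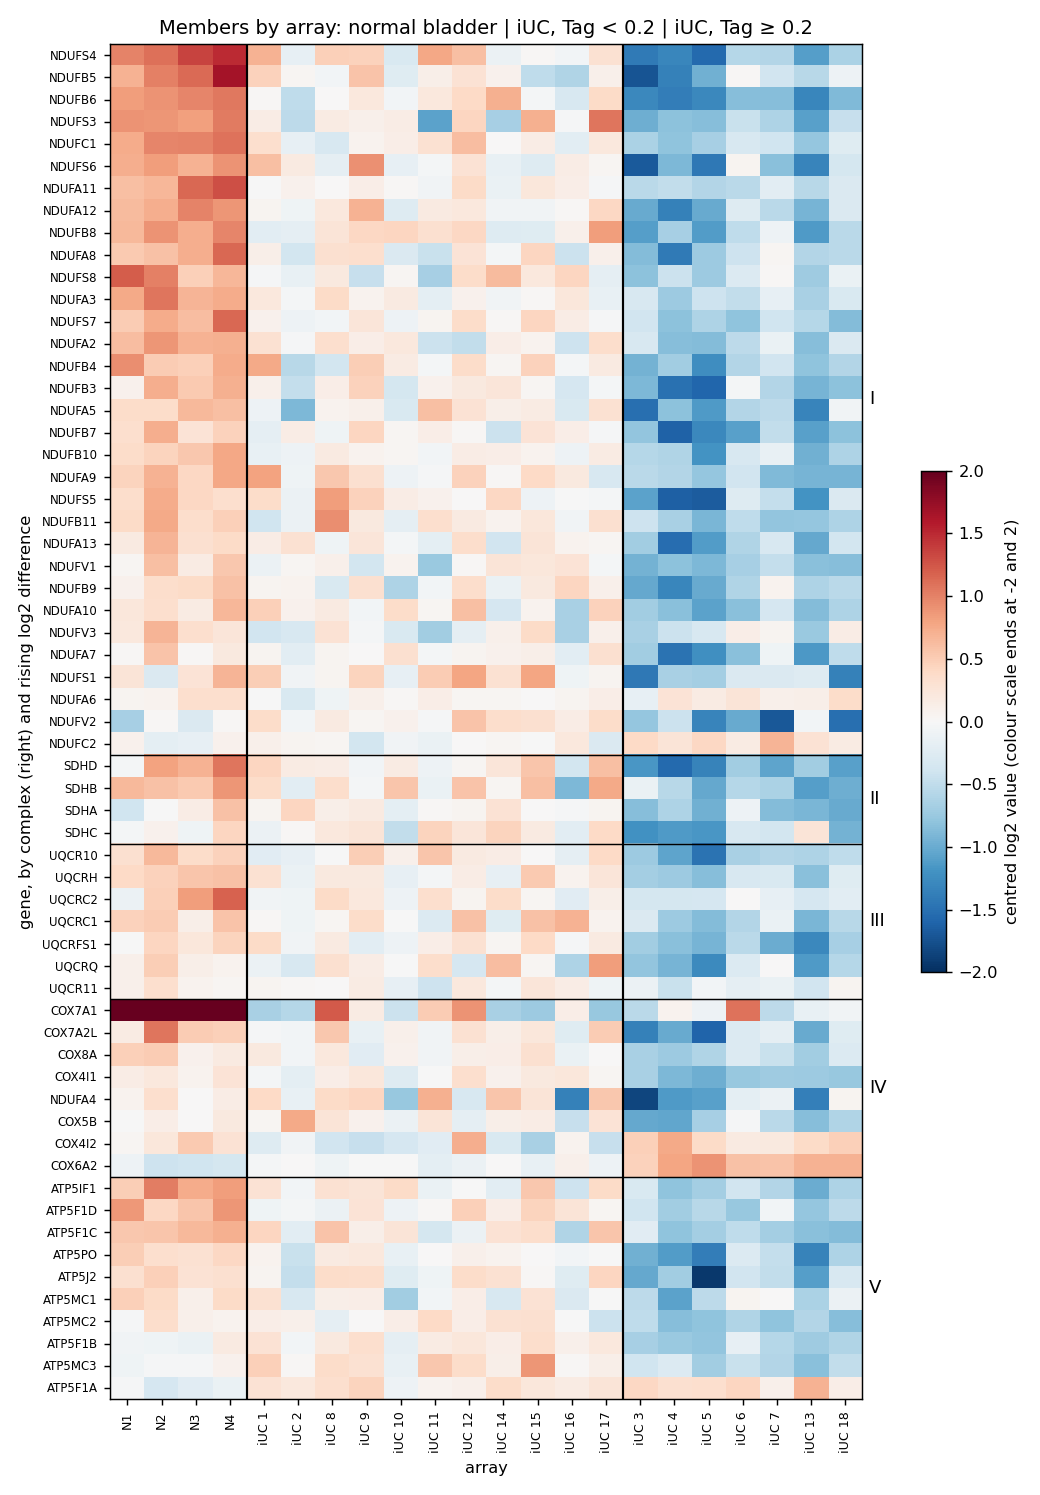
Centred log2 value (colour) of each of the 61 genes (rows, by complex and rising difference) on each of the 22 arrays (columns: normal bladder, then iUC with a Tag mean below 0.2, then iUC with a Tag mean of 0.2 or above). Most rows run from red in normal bladder through pale to blue on the 7 arrays at the right, COX7A1 is high in normal bladder alone, and COX6A2 and COX4I2 are higher on those 7 arrays.

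At 2-fold or more and an adjusted p no greater than 0.05, 9 of the 61 genes (14.8%) were called lower in iUC, where 8.64% of all genes were called lower, and 0 were called higher, where 3.68% of all genes were (limma). With the adjusted p alone, 35 genes (57.4%) were called lower, where 17.5% of all genes were, 2 (3.28%) were called higher, where 18.2% were, and 24 were not called. The values of iUC and normal bladder did not overlap for 12 genes, which were lower in all 18 iUC samples (19.7%, against 4.47% of all genes), and for 0 genes in the other direction (3.22% of all genes).

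The counts depended on single normal samples and on scaling. With the adjusted p alone, 26, 21, 19 and 18 of the 61 genes were called lower without normal bladder replicate 1, 2, 3 and 4 in turn, and with 2-fold 15, 9, 9 and 8 were. The shares of all genes called lower also changed, to 17.7, 14.6, 11.7 and 11.6%, and with 2-fold to 9.89, 8.24, 6.5 and 6.4%. Lower in each of these fits were 17 members, namely COX7A1, ATP5F1D, ATP5IF1 and the complex I genes NDUFA2, NDUFA3, NDUFA8, NDUFA11, NDUFA12, NDUFB5, NDUFB6, NDUFB8, NDUFB10, NDUFC1, NDUFS3, NDUFS4, NDUFS7 and NDUFS8. The other genes called lower over all iUC samples, NDUFS6, SDHB, SDHD, UQCRH, UQCRC2, COX7A2L and COX8A among them, lost the call in 1 or more. After quantile normalization 13 of the 61 genes were called lower, where 7.41% of all genes were. With 2-fold 1 of the 61 was, where 2.85% of all genes were. With the label ending as a block, normal bladder replicate 1 alone is set against the iUC samples, and most calls of members were lost. The median difference of the members there was -0.56, where all genes had 0.07.

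The changes were smaller in the 11 iUC samples with the lower Tag signal. Against the same 4 normal samples, 2 genes (3.28%) were called lower with 2-fold, COX7A1 and NDUFB5, which is no more than the 5.96% of all genes, and 0 were called higher with 2-fold (5.23% of all genes). With the adjusted p alone 26 genes (42.6%) were called lower, where 16.6% of all genes were, and each of the 26 was also called lower over all iUC samples. The 9 genes called lower over all iUC samples and not over the 11 were NDUFA5, NDUFA9, NDUFB11, NDUFV1, SDHB, SDHD, COX8A, ATP5F1C and ATP5MC1. Called higher were 3 genes, ATP5F1A, COX6A2 and NDUFV2, where 21.1% of all genes were. The median difference was -0.39, and 12 genes lay below normal bladder without overlap (5.45% of all genes) and 0 above it (5.95%).

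Among the 7 iUC samples with the higher Tag signal, 39 genes were called lower with 2-fold (17.4% of all genes), 0 were called higher with 2-fold (7.16% of all genes), 56 were called lower with the adjusted p alone (31.5% of all genes), 3 were called higher by it (35.0% of all genes), and the median difference was -1.20. Here 49 genes lay below normal bladder without overlap (21.9% of all genes) and 3 above it (27.0%). Both comparisons used the same normal samples.

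Within iUC, the 7 arrays of higher Tag signal stood lower than the other 11 for 55 of the 61 genes, with a median difference of -0.80 where all genes had -0.01. Their values did not overlap for 19 genes that were lower (12.8% of all genes) and for 1, COX6A2, that was higher (15.9% of all genes). The number of members with a value above 0 was 49 to 59 in normal bladder, 18 to 53 (median 42) in iUC with the lower Tag signal and 4 to 11 (median 6) in iUC with the higher Tag signal. Over all genes the share above 0 overlapped between these sets of arrays, with 43.8 to 47.3%, 42.5 to 65.0% and 47.3 to 54.7%. Since the Tag and housekeeping controls moved with the members, the part of the array signal in these differences was not tested.

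**Figure D2:**
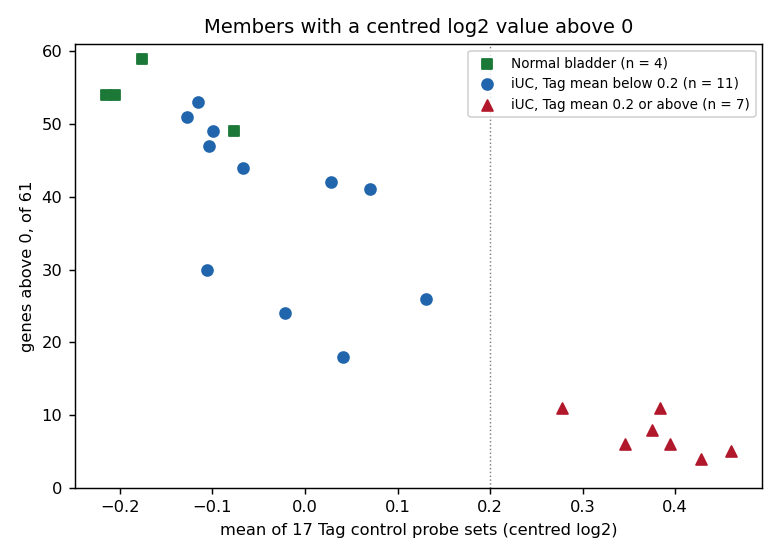
Number of the 61 genes with a centred log2 value above 0 (y axis) against the average Tag signal (x axis, mean of 17 controls in centred log2), 1 point for each array, with a dotted line at a Tag mean of 0.2. The 7 iUC arrays to the right of the line have 11 such genes or fewer, the other iUC arrays 18 or more and the normal arrays 49 or more.

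Complex I, which opens the chain by oxidising NADH, held most of the called genes. Over all iUC samples 8 of its 32 genes (25.0%) were called lower with 2-fold and 23 (71.9%) with the adjusted p alone, the median difference was -0.84, and 10 of the 32 (31.2%) lay below normal bladder without overlap. The shares over all genes were 8.64%, 17.5% and 4.47%. In the 11 iUC samples with the lower Tag signal, 19 (59.4%) were called lower and 1 higher, the median difference was -0.51, and 10 did not overlap, where 16.6%, 21.1% and 5.45% of all genes did so. With 2-fold 1 of the 32 (3.12%) was called lower in these 11, which is no more than the 5.96% of all genes. The 29 members of the other complexes had a median difference of -0.53 and 12 calls (41.4%) downwards and 2 upwards over all iUC samples, and -0.26 with 7 and 2 in the 11 samples. Whether complex I differed from the other complexes was not tested.

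**Figure D3:**
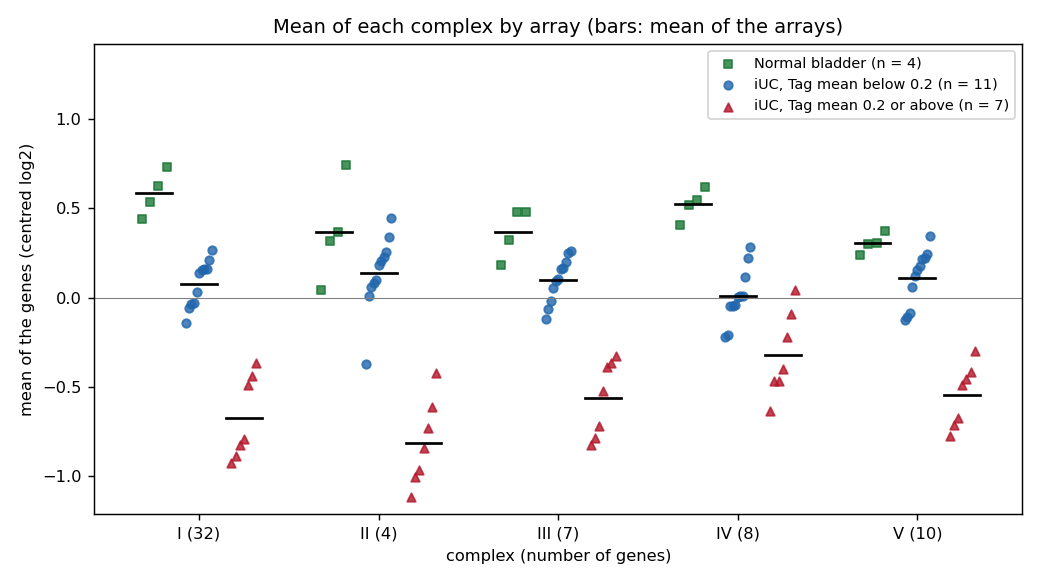
Mean of the genes of each complex (y axis, centred log2; number of genes on the x axis) on each array, with a bar at the mean of each set of arrays. Normal bladder lies above all iUC arrays for complexes I and IV (for IV this does not hold without COX7A1, COX4I2 and COX6A2), the sets overlap for complexes II, III and V, and the 7 iUC arrays with the higher Tag signal lie below the other iUC arrays for all complexes but IV.

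The subunits of complex I that carry out electron transfer are the core subunits, and 6 of them were measured. Of these, NDUFS3, NDUFS7, NDUFS8 and NDUFV1 were called lower over all iUC samples by the adjusted p, and the median of the 6 was -0.80. NDUFS3, a core subunit of the arm that reaches into the matrix, stood at 0.89, 0.88, 0.81 and 1.04 in normal bladder replicates 1 to 4 and at -1.09, -0.45 and 1.07 (lowest, median and highest) in iUC. One iUC sample passed the highest normal value and the other 17 lay below the lowest, with a difference of -1.17 (SE 0.31, limma adjusted p = 0.0067). NDUFS7, an iron-sulfur subunit at the site where ubiquinone is reduced, stood at 0.50, 0.74, 0.62 and 1.16 in normal bladder and at -0.87, -0.08 and 0.43 in iUC. All 18 iUC samples lay below normal bladder, and the difference was -0.94 (SE 0.21, limma adjusted p = 0.0020).

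The other 2 core genes were not called over all iUC samples. NDUFS1, the largest iron-sulfur subunit, differed by -0.33 (limma adjusted p = 0.41) and overlapped widely with normal bladder. NDUFV2, a subunit of the NADH-binding part, stood at -0.67, 0.03, -0.29 and 0.02 in normal bladder, at -0.05 to 0.57 in the 11 iUC samples with the lower Tag signal and at -1.69 to -0.06 in the other 7. Its difference was -0.02 (limma adjusted p = 0.97) over all iUC samples and 0.44 (SE 0.13, limma adjusted p = 0.018) over the 11, so that the sign turned with the choice of arrays.

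The 26 accessory subunits surround the core and are needed for its assembly and stability, and 19 of them were called lower by the adjusted p (17.5% of all genes), with a median of -0.84. Over the 11 iUC samples with the lower Tag signal 16 were called lower (16.6% of all genes), 1 of them with 2-fold (5.96% of all genes). NDUFS4, which lies beside the NADH-binding part and is a frequent site of inherited complex I deficiency in people, stood at 0.99, 1.10, 1.36 and 1.49 in normal bladder and at -1.55, -0.14 and 0.78 in iUC. The groups did not overlap, and the difference was -1.48 (SE 0.37, limma adjusted p = 0.0041), or -0.99 in the 11 iUC samples with the lower Tag signal. NDUFS6, an accessory subunit that binds zinc, stood at 0.72, 0.83, 0.69 and 0.89 in normal bladder and at -1.68, -0.16 and 0.91 in iUC. A single iUC sample overlapped with normal bladder, and the difference was -1.07 (SE 0.34, limma adjusted p = 0.021). NDUFA12, which replaces the assembly factor NDUFAF2 late in assembly, stood at 0.63, 0.73, 0.99 and 0.88 in normal bladder and at -1.35, -0.08 and 0.69 in iUC. Here 17 of the 18 iUC samples lay below normal bladder, with a difference of -1.03 (SE 0.27, limma adjusted p = 0.0062).

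Accessory subunits of the membrane arm, which holds the proton pumps, made up the rest of the 2-fold calls. NDUFB5 stood at 0.70, 1.01, 1.13 and 1.67 in normal bladder and at -1.72, -0.08 and 0.57 in iUC, with a difference of -1.39 (SE 0.31, limma adjusted p = 0.0017). It was the complex I gene with the largest difference in the 11 iUC samples with the lower Tag signal, -1.11 (limma adjusted p = 0.0011). NDUFB6 stood at 0.83, 0.90, 0.98 and 1.06 in normal bladder and at -1.39, -0.19 and 0.71 in iUC, with a difference of -1.32 (SE 0.33, limma adjusted p = 0.0046). For both genes all iUC samples lay below all normal samples.

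NDUFC1, a small subunit of the membrane arm, stood at 0.74, 0.98, 0.99 and 1.09 in normal bladder and at -0.80, -0.19 and 0.62 in iUC, again without overlap. The difference was -1.10 (SE 0.21, limma adjusted p = 0.00038). Its 3 probe sets gave -2.39, -0.98 and 0.07, so that the size for the gene is that of no single probe set. NDUFA11, a membrane arm subunit with 1 probe set, stood at 0.60, 0.66, 1.15 and 1.29 in normal bladder and at -0.59, -0.05 and 0.38 in iUC. Replicates 3 and 4 stood above replicates 1 and 2, and all iUC samples lay below the lower pair, with a difference of -1.06 (SE 0.17, limma adjusted p = 6.8e-05).

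Further complex I genes whose iUC samples all lay below normal bladder were NDUFA8, NDUFA3, NDUFA2 and NDUFB10, with differences of -0.997, -0.95, -0.93 and -0.75. NDUFC2 was the only complex I gene with a higher mean in iUC (0.16, limma adjusted p = 0.35), and its 2 probe sets were called in opposite directions, at -0.57 and 0.89.

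**Figure D4:**
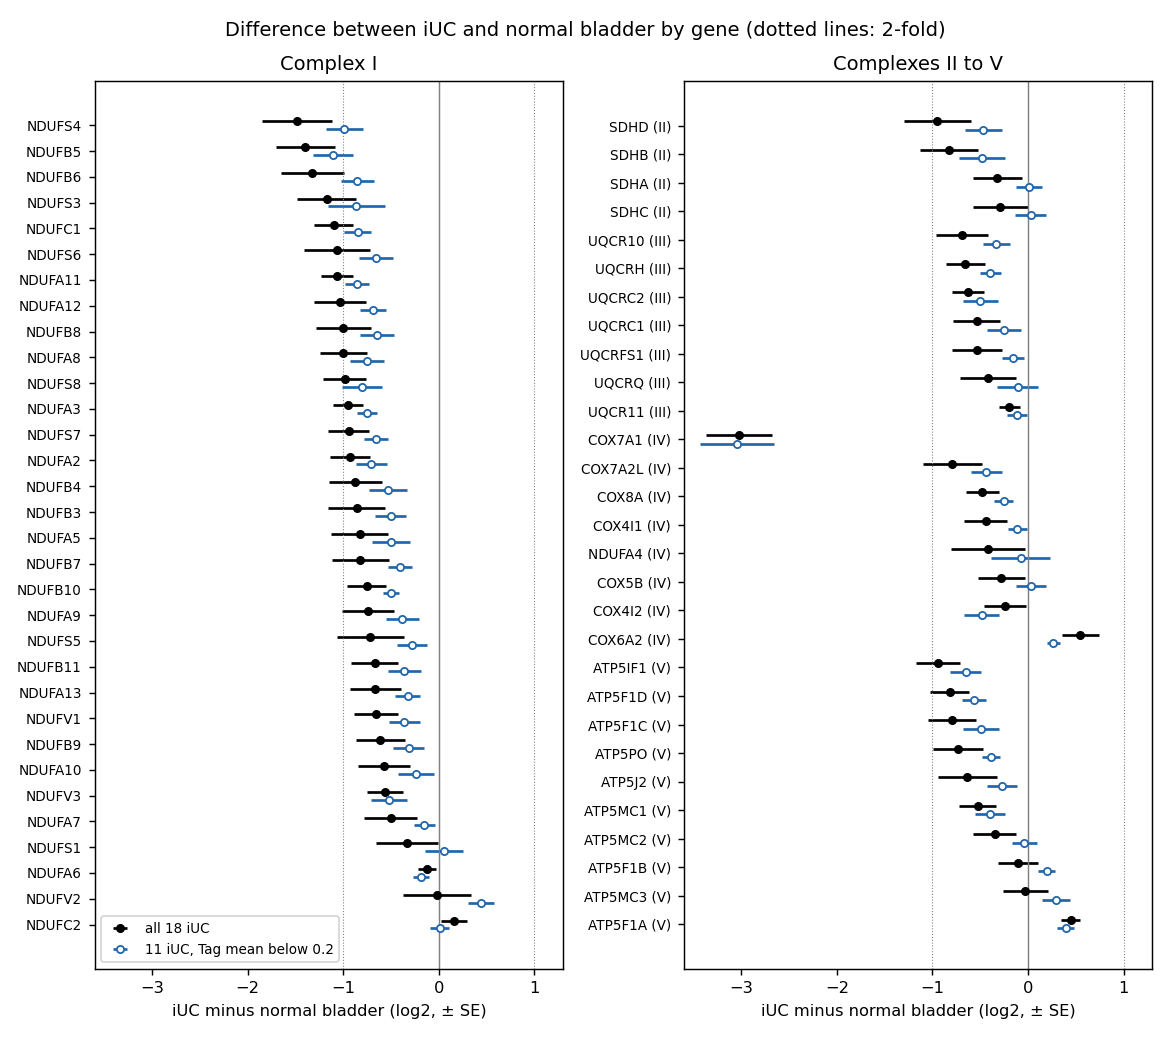
Difference between iUC and normal bladder for each gene (x axis, log2, with the limma standard error), for all 18 iUC samples (filled) and for the 11 with a Tag mean below 0.2 (open), by complex. Most complex I genes lie left of 0 in both, COX7A1 lies near -3 in both, and ATP5F1A and COX6A2 lie right of 0 in both.

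Complex II, succinate dehydrogenase, is also an enzyme of the tricarboxylic acid cycle and is encoded wholly in the nucleus. Its 4 genes split into a pair called lower by the adjusted p, where 17.5% of all genes were, and an uncalled pair. With 2-fold 0 of the 4 were called lower, where 8.64% of all genes were. SDHB, the iron-sulfur subunit, stood at 0.64, 0.59, 0.52 and 0.89 in normal bladder and at -1.11, -0.13 and 0.76 in iUC, with a difference of -0.83 (SE 0.30, limma adjusted p = 0.039). SDHD, a membrane anchor, stood at -0.04, 0.80, 0.69 and 1.06 in normal bladder and at -1.55, -0.08 and 0.59 in iUC, with a difference of -0.95 (SE 0.35, limma adjusted p = 0.040). Both overlapped between the groups, and normal bladder replicate 1 was the low sample for SDHD. SDHA, the flavoprotein that holds the catalytic site, and SDHC, the other membrane anchor, differed by -0.32 and -0.29 (limma adjusted p = 0.31 and 0.42). In the 11 iUC samples with the lower Tag signal 0 of the 4 were called, where 16.6% of all genes were called lower. The differences there were -0.48 for SDHB, -0.47 for SDHD, 0.01 for SDHA and 0.03 for SDHC.

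Complex III, cytochrome bc1, had 2 of 7 genes called lower by the adjusted p, UQCRH and UQCRC2, where 17.5% of all genes were. With 2-fold 0 of the 7 were called lower (8.64% of all genes), and the median was -0.54. UQCRH, the hinge protein at the docking site of cytochrome c, stood at 0.40, 0.46, 0.55 and 0.58 in normal bladder and at -0.85, -0.15 and 0.52 in iUC. Except for 1 iUC sample the groups were apart, and the difference was -0.66 (SE 0.20, limma adjusted p = 0.017). UQCRC2, a core protein of the matrix side, stood at -0.11, 0.48, 0.83 and 1.17 in normal bladder, a wide spread, and at -0.35, -0.08 and 0.39 in iUC, with a difference of -0.63 (SE 0.17, limma adjusted p = 0.0073). Both were also called lower in the 11 iUC samples with the lower Tag signal, at -0.39 and -0.50. The small subunits UQCR10, UQCRQ and UQCR11 had differences of -0.69, -0.42 and -0.20 and were not called. UQCR11 had the most probe sets of the members, 6, of which 1 was called lower (-0.61) and 1 higher (0.49).

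Complex IV, cytochrome c oxidase, held the largest difference of the 61 genes. COX7A1, the form of subunit 7A made in heart and skeletal muscle, stood at 2.46, 2.28, 3.34 and 3.76 in normal bladder and at -0.76, -0.13 and 1.22 in iUC. The lowest normal sample stood above the highest iUC sample, and the gene was 8.14-fold lower in iUC (log2 -3.02, SE 0.34, limma adjusted p = 9.7e-07). It did not follow the Tag signal as other members did. The difference was -3.04 (limma adjusted p = 6.5e-05) in the 11 iUC samples with the lower Tag signal and -3.00 in the other 7. The value rests on 1 probe set.

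COX7A1 and the smooth muscle markers both stood high in normal bladder. Normal bladder replicate 2 had the lowest and replicate 4 the highest value of both the marker mean and COX7A1. Within iUC the order was another: iUC replicate 8, with the highest COX7A1 (1.22), had a smooth muscle mean of -0.42, and iUC replicate 5, with the highest smooth muscle mean (0.91), had a COX7A1 value of -0.11. The part of smooth muscle in the difference of COX7A1 was not tested. The mean of complex I followed the marker mean less closely among the normal samples, since replicate 2, with the lowest marker mean, had the complex I mean next to the highest (0.63), after replicate 4 (0.73). Replicate 1, with a marker mean of 3.03, had the lowest (0.44). In iUC the sample with the highest smooth muscle mean, replicate 5, had the lowest complex I mean (-0.93) and also the highest Tag mean of all arrays (0.460). The part of smooth muscle in the difference of complex I was not tested.

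**Figure D5:**
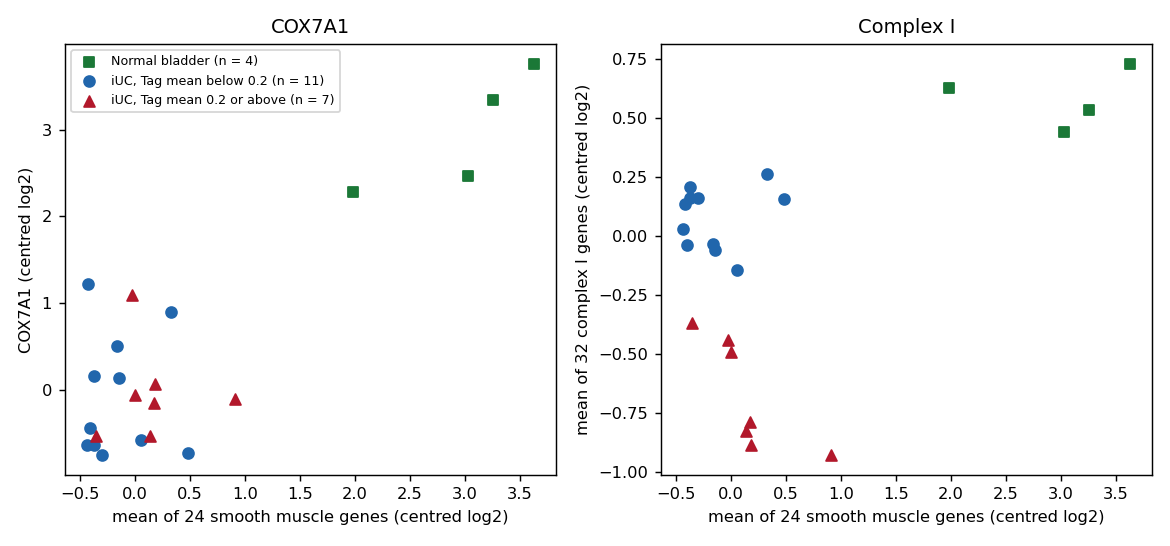
COX7A1 (left) and the mean of the 32 complex I genes (right) on the y axes against the mean of 24 smooth muscle markers (x axes), all centred log2, 1 point for each array. The 4 normal samples stand apart at the upper right in both, and the 7 iUC arrays with the higher Tag signal lie lower than the other iUC arrays for complex I and among them for COX7A1.

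Without COX7A1, COX4I2 and COX6A2, the mean of the other complex IV genes was 0.13 to 0.45 in normal bladder and overlapped with iUC, where it ran from -1.10 to 0.30. COX7A2L, a relative of subunit 7A that helps complexes III and IV to join, was called lower at -0.79 (SE 0.31, limma adjusted p = 0.048), and COX8A, a small subunit found in most tissues, at -0.48 (SE 0.17, limma adjusted p = 0.036), which was not called over the 11 iUC samples with the lower Tag signal (limma adjusted p = 0.062). COX4I1, the common form of subunit 4, differed by -0.44 (limma adjusted p = 0.12). COX4I2, the form known from lung, differed by -0.24 (limma adjusted p = 0.38), with 1 probe set called lower (-1.08) and the other called higher (0.59). COX6A2, the muscle form of subunit 6A, stood at -0.11, -0.41, -0.39 and -0.35 in normal bladder and at -0.20, 0.01 and 0.90 in iUC. It was called higher (0.54, SE 0.19, limma adjusted p = 0.032), a call lost without normal bladder replicate 2, 3 or 4. Of its 2 probe sets, one gave 0.09 and the other 1.00. In that order they were 0.16 and 1.29 higher on the iUC arrays with the higher Tag signal than on the other iUC arrays. On the 7 arrays with the higher Tag signal COX6A2 stood at 0.46 to 0.90, above all other iUC arrays. The counterparts COX6A1, COX6B1, COX6B2, COX7A2 and COX8C were not among the genes measured under the rule, so their forms were not analysed here.

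Complex V uses the proton gradient to make ATP. Of its 10 genes 5 were called lower and 1 higher by the adjusted p (17.5% and 18.2% of all genes). With 2-fold 0 of the 10 were called lower and 0 higher (8.64% and 3.68% of all genes). Over the 11 iUC samples with the lower Tag signal 3 were called lower and 1 higher (16.6% and 21.1% of all genes), and ATP5F1C and ATP5MC1 were no longer called. ATP5IF1, which inhibits the enzyme when it runs backwards, stood at 0.49, 1.02, 0.74 and 0.84 in normal bladder and at -0.995, -0.17 and 0.54 in iUC, with 17 of 18 iUC samples below normal bladder. The difference was -0.94 (SE 0.23, limma adjusted p = 0.0039). ATP5F1D, the delta subunit of the central stalk, differed by -0.82 (SE 0.20, limma adjusted p = 0.0042). ATP5PO, which ties the catalytic head to the peripheral stalk, stood at 0.49, 0.33, 0.31 and 0.42 in normal bladder and at -1.39, -0.10 and 0.21 in iUC. It was the only complex V gene whose groups did not overlap, with a difference of -0.73 (SE 0.26, limma adjusted p = 0.035).

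The 3 genes for the proton-carrying c subunit, whose mature proteins are the same, were spread from -0.53 for ATP5MC1, which was called (limma adjusted p = 0.036), through -0.35 for ATP5MC2 to -0.03 for ATP5MC3, which were not. The catalytic beta subunit, ATP5F1B, differed by -0.11 (limma adjusted p = 0.70). ATP5F1A, the alpha subunit that sits beside it, stood at -0.02, -0.33, -0.23 and -0.13 in normal bladder and at -0.10, 0.27 and 0.70 in iUC and was called higher (0.44, SE 0.10, limma adjusted p = 0.0022). Its 3 probe sets gave -0.09, -0.05 and 1.47, 0 of the 3 were called by itself, and the gene was not called when the median of its probe sets took the place of their mean. The probe set at 1.47 was 2.48 higher on the iUC arrays with the higher Tag signal than on the others, while the other 2 differed by -1.13 and -0.94.

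At the level of probe sets, 61 of the 117 were called lower by the adjusted p (19.4% of all probe sets) and 4 higher (15.8% of all probe sets), and 22 and 0 with 2-fold (10.7% and 3.90%). On the iUC arrays with the higher Tag signal 104 probe sets were lower than on the other iUC arrays and 13 higher, and 7 genes had probe sets of both kinds. The probe sets of 1 gene differed by 1 or more (log2) in 10 genes, and 3 genes (COX4I2, NDUFC2 and UQCR11) had 1 probe set called lower and 1 called higher.

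Of 37 measured factors that assemble the complexes without being part of them, 12 were called lower with 2-fold (8.64% of all genes) and 20 with the adjusted p alone (17.5%), 2 were called higher (18.2%), and 15 were not called. The higher ones were COX10 and COA7, at 0.61 and 0.66. The median was -0.69, and 8 of the 37 had a higher mean in iUC. NDUFAF2, a factor that binds complex I during its assembly, ran from 2.05 to 2.66 in normal bladder and from -0.89 to 0.74 in iUC. The groups were far apart, with a difference of -2.52 (SE 0.23) over all iUC samples and -2.28 over the 11 with the lower Tag signal. COX17, which carries copper to complex IV, differed by -1.51 (SE 0.31), COA5, a factor of complex IV, by -1.36 (SE 0.25) and COX20, which aids the maturation of its subunit 2, by -1.29 (SE 0.32, calls by limma). In the 11 iUC samples with the lower Tag signal 16 of the 37 were called lower and 6 higher (16.6% and 21.1% of all genes), with a median of -0.36. With 2-fold 3 of the 37 were called lower there, where 5.96% of all genes were.

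CYCS, cytochrome c itself, was called lower with 2-fold (-1.05, SE 0.32). CYC1, the cytochrome c1 subunit of complex III that lies outside the symbol rule, differed by -0.06. With NDUFAB1 and NDUFA4L2 they formed a list of 4, with 2 called lower by the adjusted p (17.5% of all genes) and differences up to 0.45. Over the 11 iUC samples with the lower Tag signal 0 of the 4 were called lower with 2-fold (5.96% of all genes). The lowest difference there was -0.77. Of 17 measured genes of the tricarboxylic acid cycle and pyruvate entry, 0 were called lower and 0 higher with 2-fold (8.64% and 3.68% of all genes). By the adjusted p 2 were called lower, FH (fumarase, -0.88) and PDHX (-0.52), where 17.5% of all genes were. The median was -0.38 over all iUC samples and -0.12 over the 11. Among 17 genes of mitochondrial transport and the outer membrane 3 were called lower with 2-fold (8.64% of all genes) and 6 with the adjusted p alone (17.5%), with a median of -0.36 over all iUC samples and 0.0016 over the 11. The 3 with 2-fold were SLC25A4, the form of the ATP/ADP carrier common in heart and skeletal muscle (-1.80, SE 0.31), VDAC3, a channel of the outer membrane (-1.25, SE 0.37), and TOMM22, an import receptor (-1.23, SE 0.31). All iUC samples lay below normal bladder for SLC25A4, while SLC25A5 and SLC25A6, other forms of the same carrier, differed by -0.02 and -0.27 and were not called. Over the 11 iUC samples with the lower Tag signal 6 of the 17 transport genes were called lower by the adjusted p (16.6% of all genes). With 2-fold 1 of the 17 was called lower there (5.96% of all genes).

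Regulators of mitochondrial biogenesis had no common direction. Of 16 measured, 1 was called lower with 2-fold (8.64% of all genes). It was POLG2, the accessory subunit of the mitochondrial DNA polymerase (-1.03, SE 0.26). With the adjusted p alone 4 were called lower and 2 higher (17.5% and 18.2% of all genes), and the median was 0.13. The 2 that were higher were the nuclear receptors ESRRA (0.81, SE 0.20) and ESRRG (0.42, SE 0.16). PPARGC1A, the coactivator that switches on many respiratory chain genes, differed by 0.18 and TFAM, which packages mitochondrial DNA, by 0.57, and neither was called (limma adjusted p = 0.48 and 0.22).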

How the data were processed

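Total RNA of 18 iUC and 4 normal canine bladder samples was hybridized to Affymetrix Canine 2.0 arrays, 1 array for each sample, and samples were grouped by their GEO titles. The authors used GeneSpring GX, and the table they deposited holds 43035 probe sets on a log2 scale. Each probe set is centred on its median over the 22 arrays, as the largest deviation of such a median from 0 was 5e-07. The values run from -7.34 to 8.25, with 0 missing. The steps of summarisation and normalization were not given in the sources used here, and the depth of an array has no meaning for such values.

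The 111 Affymetrix controls were left out of the tests. Of the other probe sets 29254 had 1 gene symbol in the platform's annotation, 439 had several and 13231 had none, and a gene's value was the mean of its probe sets with 1 symbol. A further 5 probe sets name a member beside other symbols and were not used. For 59 of the 61 members the Entrez number was found in a RefSeq table of dog genes, and 0 symbols changed. No sequences or coordinates of the members were used here.

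For each gene a linear model with the group as its only term was fitted to all samples (lmFit, then eBayes, in limma 3.58.1 under R 4.3.3), with Benjamini-Hochberg adjustment over all 15115 genes. Calls needed an adjusted p of 0.05 or below, with or without a change of 2-fold. The authors' filter on low expression could not be applied, since centred values keep no level, and a filter at the 20th percentile of the standard deviation was an alternative. On simulated data of 15115 genes for the comparison of iUC with normal bladder, 30% of genes changed by 0.5 (log2) were recovered, 64% at 1, 90% at 1.5 and 98% at 2, with 3 false calls.

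The split of the iUC arrays at a mean of 0.2 over 17 Tag controls is technical, is no group of the labels and was not tested. Complexes and lists are described by counts and medians, without set tests. Members named are those called with 2-fold, the 2 lowest and 2 highest of each complex, all of complex II, the tissue isoforms, and genes with probe sets called both ways. Of each other list up to 4 genes called with 2-fold in a direction were named. Other genes were named after their values were seen. The members and the lists were chosen with earlier results of these data known. Alternatives were array weights, each array scaled to its 75th percentile or quantile normalized, an unpaired test that the paper names, the probe set of largest variance or the median of probe sets, blocks for the label ending and the replicate number, normal bladder replicates 3 and 4 averaged, and leaving out each normal sample. Figures were drawn with matplotlib 3.10.9.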

Additional observations from a re-analysis of the deposited data

Results flagged for a closer look

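In 34 sets of 4 normal values checked for a sample far from the others (28 named genes, the means of the 5 complexes and the mean of all members), 1 was found, about what chance gives at a level of 1 in 20. UQCRQ, a small subunit of complex III, stood at 0.49 in normal bladder replicate 2 and at 0.11, 0.11 and 0.07 in replicates 1, 3 and 4, so that the gap below the highest sample was 0.905 of the whole range. The difference of UQCRQ between iUC and normal bladder was -0.42 and was not called (limma adjusted p = 0.25).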

How the results depend on the processing

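Over all iUC samples 9 members were called lower with 2-fold, 35 were called lower and 2 higher with the adjusted p alone, and the median difference was -0.67. In that order, quantile normalization gave 1, 13, 1 and -0.45, scaling each array to its 75th percentile gave 5, 22, 2 and -0.55, array weights gave 5, 36, 2 and -0.48, and the probe set of largest variance gave 16, 37, 2 and -0.79. Of all genes, 2.85% were called lower with 2-fold and 7.41% with the adjusted p alone after quantile normalization. The same shares were 7.15% and 14.1% with scaling, 8.89% and 23.7% with array weights and 13.5% and 20% with the probe set of largest variance. The iUC arrays with a Tag mean below 0.2 gave 2, 26, 3 and -0.39, and those at or above it gave 39, 56, 3 and -1.20. With normal bladder replicates 3 and 4 averaged, whose values had the highest correlation of any normal pair (0.934 over probe sets), the numbers were 7, 17, 1 and -0.70. There 6.48% of all genes were called lower with 2-fold and 11.7% with the adjusted p alone. Leaving out each normal sample in turn gave 8 to 15, 18 to 26, 1 to 2 and -0.74 to -0.62. In those fits 6.4 to 9.89% of all genes were called lower with 2-fold and 11.6 to 17.7% with the adjusted p alone. The median of the probe sets left 1 gene higher. With the label ending as a block most calls were lost, and the median difference was -0.56. Counting a gene when 1 or more of its probe sets was called, a choice made after seeing the data, gave 16 lower with 2-fold and 4 higher with the adjusted p alone. The causes of these changes were not tested.

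Replicate numbers are shared between the groups but mark different dogs, and the deviations of same-numbered samples correlated at -0.17, 0.06, -0.05 and 0.13, so the numbers were not taken to pair samples. A fit with the replicate number as a block used the 4 numbers found in both groups. It gave 4 lower with 2-fold, 5 lower and 0 higher with the adjusted p alone and a median of -0.84. Of all genes 2.31% were called lower with 2-fold and 2.47% with the adjusted p alone.

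The number of members called higher with 2-fold was 0 in every setting run. Scaling to the 75th percentile moved the median of all genes from 0.08 to 0.20, while the members stayed below it. Of the values of single named members under an alternative, 328 kept their direction and their side of the threshold, 85 lost the call, 15 gained it and 19 changed sign, all of genes not called over all iUC samples. NDUFV2 turned to 0.44 on iUC arrays with a Tag mean below 0.2, the only one of the 19 that was called. It was 0.18 after quantile normalization, 0.098 with scaling to the 75th percentile, 0.27 with array weights, 0.42 with the label ending as a block, 0.0051 with the replicate number as a block and 0.012 with replicates 3 and 4 averaged. ATP5MC3 was 0.073, 0.089 and 0.15 in the first 3 of these settings, 0.29 on iUC arrays with a Tag mean below 0.2 and 0.045 once the label ending was a block. On iUC arrays with a Tag mean below 0.2 SDHA was 0.0092 and SDHC 0.026, with the label ending as a block SDHA was 0.16, and on iUC arrays with a Tag mean of 0.2 or above COX4I2 was 0.14. Leaving out 1 normal bladder sample gave -0.17 to 0.067 for NDUFV2, above 0 without replicate 2 or 4, and -0.052 to 0.0059 for ATP5MC3, above 0 without replicate 4. COX7A1 was called lower in all 17 settings that fitted genes, at -3.40 to -1.97. Centred values give no signal over background, so dim probe sets could not be told from bright ones.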

Other observations

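Of 4 measured assembly factors of complex II, SDHAF2, SDHAF3 and SDHAF4, which help SDHA and SDHB to mature, differed by -1.08, -1.10 and -1.03 and were called with 2-fold (limma). SDHAF1 differed by 0.03 and was not called (limma adjusted p = 0.90). Over the 11 iUC samples with the lower Tag signal SDHAF2 differed by -0.74 and was called by the adjusted p, and SDHAF3 and SDHAF4, at -0.75 and -0.56, were not. PPRC1, a relative of PPARGC1A, differed by -0.76 (SE 0.11), with all 18 iUC samples below normal bladder and -0.68 over the 11. These genes were chosen after their values were seen.

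On the 7 iUC arrays with the higher Tag signal, other lists also stood apart from the remaining iUC arrays, given here as values without a test. The median difference was -0.93 over 17 genes of the tricarboxylic acid cycle, -0.98 over the 17 transport genes and -0.73 over the 37 assembly factors. It was -0.95 over the 19 urothelial markers and -1.25 over the 10 markers of dividing cells. In that order 11, 8, 8, 4 and 1 genes were lower without overlap, where 12.8% of all genes were. The median difference was 0.29 over the 24 smooth muscle markers, 0.31 over the 10 endothelial markers and 0.13 over the 14 leukocyte markers.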
